A study of Rattus norvegicus with 4 samples.

Results

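Transcription of the rat middle ear mucosa 1 week after inoculation with a methicillin-resistant strain of Staphylococcus aureus (MRSA) together with Pseudomonas aeruginosa (PA) was compared with that of the mucosa given media only. A feature (a gene model with 1 line in the deposited expression table) was included if its genomic span was at least 300 bp and its mean over the 4 libraries of the series was at least 1 FPKM, a fragment count scaled to transcript length and library size. Of 27832 features, 15786 met both conditions, and 14307 of these carried a gene name. The span condition kept 27563 features and the level condition 15944. The 19 features within 0.01 FPKM above the level limit had a median log2 difference of -0.08, and the 24 within 0.01 FPKM below it one of -0.11.

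All animals were SD (Sprague-Dawley) rats of unstated age, and the group labelled Media received vehicle only. The group labelled Mixed received MRSA and PA together and is called MRSA + PA here. Rats given MRSA alone or PA alone form the other libraries of the series, and their levels are given beside those of the comparison. Inocula of 50 µL were injected across the eardrum on the right side, and the mucosa was scraped from the bulla after 1 week, so that each library holds every cell type the scraping took. Each condition had 1 library, and whether a library came from 1 rat or several is not stated, so there was no spread between replicates, no test was possible and the differences are sizes only.

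The mucosa of the middle ear is a respiratory-type lining over bone. Ciliated cells sweep fluid towards the Eustachian tube, secretory cells coat the surface with mucins, BPI fold proteins and lysozyme, and basal cells renew both. Bacteria are met by resident macrophages and by neutrophils, after which dendritic cells carry antigen to lymphocytes; chemokines draw these cells in, and bone-resorbing osteoclasts lie under the mucosa. MRSA, a Gram-positive coccus, and PA, a Gram-negative rod, are both isolated from chronically draining ears.

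The epithelial markers fixed for the tissue check were present in both libraries. EPCAM, an adhesion molecule of epithelia, was at 237 FPKM in Media and 222 FPKM in MRSA + PA, and KRT18, a keratin of simple epithelium, was at 76.5 and 83.7 FPKM. Secretory BPIFA1 and ciliated-cell FOXJ1 were also detected in both. The scraping held other tissue as well. ACTA1, the actin of skeletal muscle, was at 719 FPKM in Media and 0.259 FPKM in MRSA + PA, and BGLAP, osteocalcin of bone, was at 5905 and 2717 FPKM. Of 14 melanocyte genes 5 passed the level limit, and the log2 ratio of MRSA + PA over Media had a median of 0.64 among them. TYR and PMEL were below 1 FPKM in both libraries, while MLANA was at 1.53 FPKM in Media and 3.44 FPKM in MRSA + PA. PTPRC, which encodes the CD45 found on all leukocytes, was at 56.9 FPKM in MRSA + PA against 18.7 FPKM in Media. In such bulk samples more cells of a type and more RNA per cell cannot be told apart. FPKM sums over features of at least 300 bp were between 692953 and 779182 in the 4 libraries, and the 10 highest features held 10.1% to 16.8% of them.

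Most features differed little between the libraries. The log2 difference, which is the log2 ratio of MRSA + PA over Media after 0.1 FPKM was added to both, had a median of 0.05 over the 15786 features, and 71.3% of features lay within 1.5-fold of the Media level. In MRSA + PA 1215 features (7.7%) were at least 2-fold higher and 1193 (7.56%) at least 2-fold lower, so that 50.5% of the 2408 differing features were higher. These percentages are the background against which each group of genes below is read. At 4-fold, 356 features (2.26%) were higher and 473 (3%) lower. At 16-fold, 90 were higher and 202 lower, so that the largest differences lay more often on the lower side. A 2-fold difference was commonest among weakly expressed features. It was found in 33.3% of features with a mean of 1 to 2 FPKM, in 22.3% of those between 2 and 5 FPKM, in 10.9% of those between 5 and 20 FPKM, in 8.97% of those between 20 and 100 FPKM and in 14.7% of those at 100 FPKM or more. Without the members of the 4 skeletal muscle lists, 1215 features were at least 2-fold higher and 1111 lower.

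**Figure D1:**
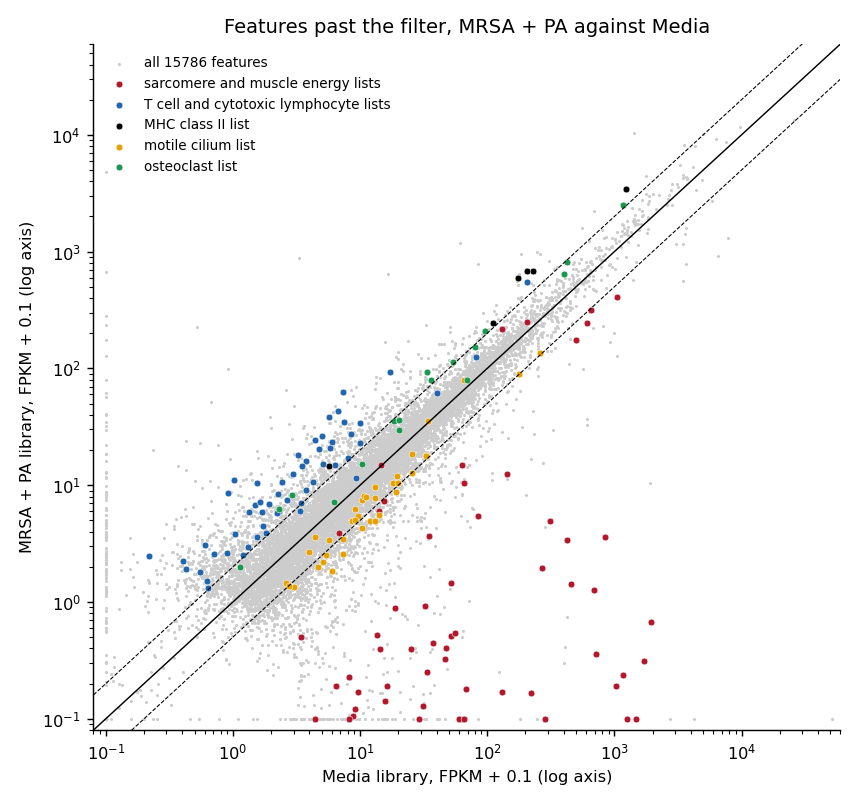
Level of every feature in the MRSA + PA library (vertical log axis, FPKM + 0.1) against Media (horizontal log axis, FPKM + 0.1), with 5 groups of genes coloured; the solid line marks equal levels and the dashed lines 2-fold differences. Genes of the muscle sarcomere and muscle energy lists lie far below the line, T cell, cytotoxic lymphocyte and MHC class II genes lie above it, and motile cilium genes lie mostly just below it.

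To describe which tissues and functions differed, 55 lists of genes were read. They named 1287 genes, of which 1219 were in the table and 1059 passed both conditions. Among these 248 lay at least 2-fold above Media and 193 at least 2-fold below. A list member below is a gene that passed both conditions, and some genes stand in more than 1 list. Counts of members are read against 7.7% higher and 7.56% lower over all features, and medians against 0.05. CCL3, CCL19, CCL24, CCL28, CD3E, CD8A, CD163, CD244, CIITA, CXCL1, CXCL2, CXCL5, DCSTAMP, DEFB4, DMP1, DNAH12, ELANE, EOMES, FOXP3, GATA3, GZMK, GZMM, ICAM1, LCN2, MKI67, MPO, MUC5AC, NCR1, NKG7, PDCD1, PRF1, RSAD2, TBX21, TLR2, TLR4, TLR5, TNF, TNFRSF11B, TPM2 and TPM3 are named as known markers outside the rule for named genes, and were chosen after their values were seen. The highest list medians were those of cytotoxic lymphocytes, T cells, MHC class II, CC chemokine ligands and chemokine receptors, and the lowest those of skeletal muscle.

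**Figure D2:**
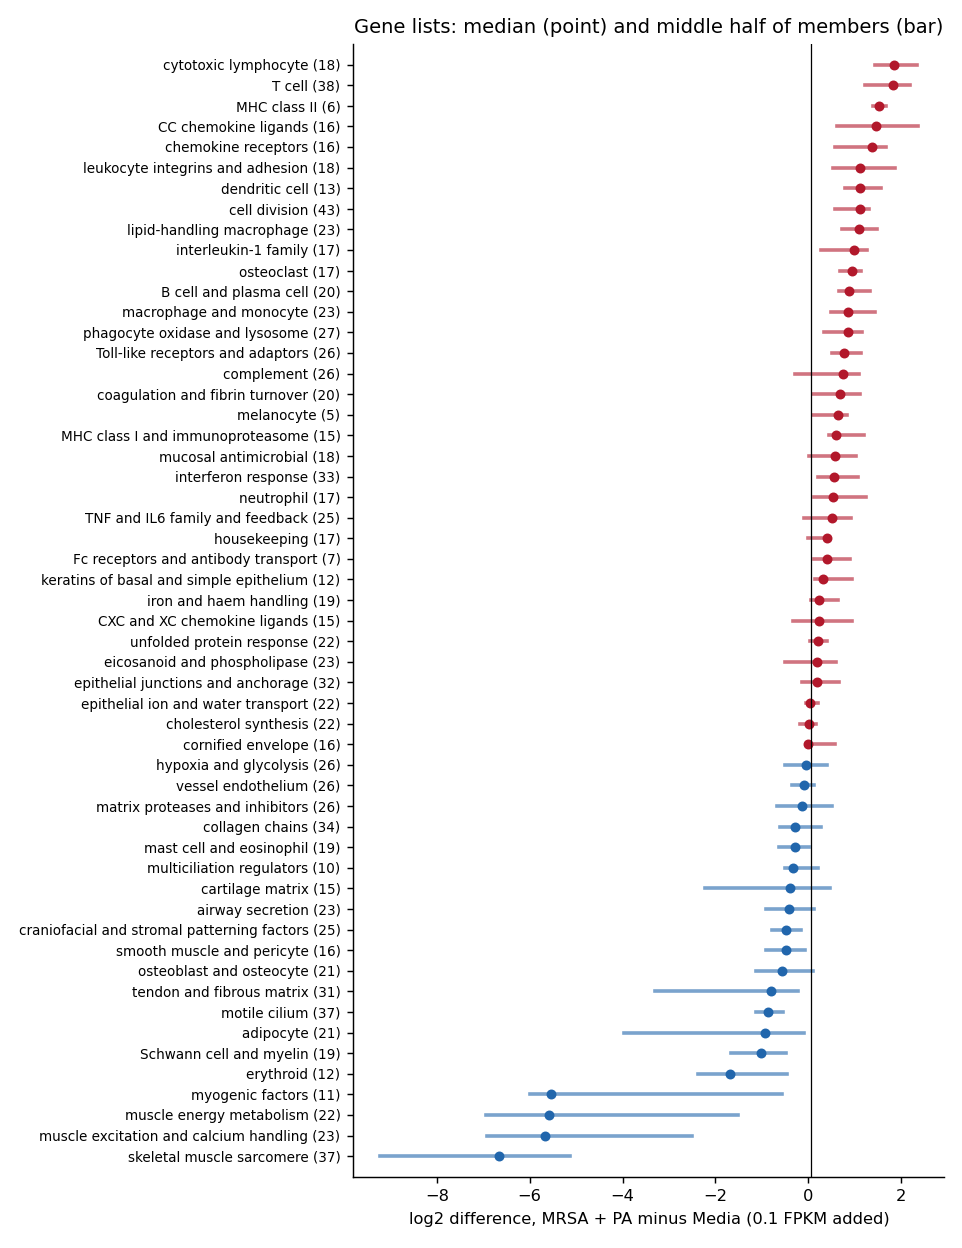
Median log2 difference of MRSA + PA from Media (point, 0.1 FPKM added) and the interquartile range of the members (bar) for each gene list with at least 5 members past both conditions; the number of members is in parentheses, red marks a median at or above 0, and the vertical line is the median of all features, 0.05. Cytotoxic lymphocyte (1.85) and T cell (1.82) genes are at the top, and skeletal muscle sarcomere genes (-6.65) are at the bottom.

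T cell genes were higher in MRSA + PA almost without exception. Of 38 members, 35 were at least 2-fold higher and 0 lower, and the median log2 difference was 1.82. Each of the 38 had its lowest level in Media, beside 39.9% of all features. CD3D and CD3G, chains of the complex that carries the signal of the T cell receptor, showed the pattern. CD3D was at 5.6, 37.5, 33.6 and 38.4 FPKM (Media first, then MRSA, then PA and last MRSA + PA, the order of all sets of 4 levels below). CD3G was at 6.65, 39.9, 35.8 and 43.1 FPKM. In both genes the 3 inoculated libraries lay close together, well above Media. CD8A, the co-receptor of cytotoxic T cells, had a level of 4.67, 27, 11.1 and 20.3 FPKM, so that MRSA + PA lay between the single inocula. CD69, an early activation marker, was at 0.821, 9.0, 5.52 and 8.47 FPKM. TIGIT, an inhibitory receptor, had the largest difference of the list, 3.51, at low levels of 0.119, 0.863, 1.39 and 2.39 FPKM. PDCD1, which encodes the checkpoint receptor PD-1, was at 0.306, 2.55, 1.57 and 2.12 FPKM. FOXP3, the factor of regulatory T cells, was at 0.537 FPKM in Media and 1.21 FPKM in MRSA + PA. The 3 members within 2-fold were CD4, LCP2 and GATA3, and CD4, which macrophages of the rat also carry, was at 81.8, 149, 177 and 124 FPKM. Of 89 features named as T cell receptor segments 31 passed both conditions, and 29 of these were at least 2-fold higher. Among the 31, 7 were listed at 0 in Media, whereas in MRSA + PA each had a level above 0. Over all features past both conditions, 142 were listed at 0 in Media and 145 in MRSA + PA. A segment at 0 in Media could meet the level limit only through the inoculated libraries, so these zeros are not separate evidence of a difference. The summed level of the 31 was 47.3, 269, 292 and 280 FPKM. Weak segments thus met the limit mainly through the inoculated libraries, and the count of 29 is not separate evidence either.

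Genes of cytotoxic lymphocytes were higher in the mixed inoculum, and here the single inocula differed from each other. Of 18 members 17 were at least 2-fold higher than in Media, with a median of 1.85, beside medians of 1.74 in MRSA and 0.39 in PA. CCL5, a chemokine released by activated T and NK cells, was at 17.2, 71.9, 12 and 92.5 FPKM. GZMK, a granzyme, was at 1.52, 4.42, 0.771 and 7.14 FPKM and GZMM, another granzyme, at 4.92, 25, 2.77 and 26.3 FPKM. For these 3 genes MRSA and MRSA + PA were above Media while PA was below it. In 12 of the 18 members MRSA + PA was the highest of the 4 libraries, beside 20.8% of all features. NKG7, a protein of cytotoxic granules, followed the same order at 9.87, 18.9, 4.68 and 22.8 FPKM. PRF1, the pore-forming perforin, was at 1.82, 7.93, 2.66 and 6.84 FPKM, with PA just above Media. EOMES and TBX21, the transcription factors of cytotoxic and type 1 cells, were at 0.616 and 0.447 FPKM in Media and 2.46 and 1.71 FPKM in MRSA + PA. KLRB1F, a lectin-like receptor of killer cells, was at 1.46, 8.04, 1.6 and 10.3 FPKM. Not every member kept this order. SH2D1B, an adaptor of NK cell receptors, was at 0.922, 5.11, 11.2 and 11.1 FPKM, with PA and MRSA + PA close together, and NCR1, an activating NK cell receptor, was at 1.23, 4.91, 4.69 and 5.85 FPKM, with all 3 inoculated libraries above Media. CD244 was the single member within 2-fold, at 3.3 FPKM in Media and 5.94 FPKM in MRSA + PA.

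B cell genes were higher to a lesser degree, and plasma cell genes divided. Of 20 members 8 were at least 2-fold higher and the median was 0.87. MS4A1, which encodes CD20, was at 0.925, 3.87, 2.78 and 2.93 FPKM, low in every library and lowest in Media. IGJ, the joining chain of secreted IgM and IgA, was at 30.2, 229, 101 and 122 FPKM, so that MRSA + PA lay at about the level of PA and below MRSA. XBP1, a factor of secretory cells, went the other way at 109, 94.4, 98.2 and 75.2 FPKM. SDC1, which marks plasma cells and epithelium alike, was at 165, 202, 296 and 279.6 FPKM.

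The features named for immunoglobulin variable segments held many of the largest single differences. Of 195 such features 109 passed both conditions, and 73 of these were at least 2-fold higher and 13 lower, with a median of 2.20. Listed at 0 were 35 in Media and 7 in MRSA + PA, beside 142 and 145 over all features past both conditions. The level limit was met largely through the inoculated libraries, which favours zeros and low levels in Media. For that reason this imbalance, the counts of 73 and 13 and the median of 2.20 are not separate evidence of a difference. The summed level of the 109 features was 550.0, 4682, 1399.7 and 2924 FPKM in the same order. Single segments had their highest level in different libraries. A feature named KV501_HUMAN on chromosome 4 was listed at 0 in Media and was at 173 FPKM in MRSA + PA, beside 17.3 in MRSA and 7.87 in PA. HVM44_MOUSE on chromosome 6 was highest in MRSA, at 0.574, 261, 21.2 and 51.8 FPKM. HVM21_MOUSE, also on chromosome 6, was highest in PA, at 0, 15.7, 258 and 34.9 FPKM. LV603_HUMAN, a light chain name on chromosome 11, was at 16.3, 223, 60.0 and 646 FPKM. This last feature was highest in MRSA + PA. These names come from related proteins of other species, some are carried by several features, and reads could be divided between near-identical segments, so the level of any single segment is uncertain.

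Genes of antigen presentation by MHC class II were all higher in the mixed inoculum. Each of the 6 members found was at least 2-fold higher, with a median of 1.51, beside 1.48 in MRSA and 0.99 in PA. CD74, the invariant chain that escorts class II molecules, was at 1237, 3539, 2233 and 3431 FPKM, a gain that put it among the 10 named features with the largest gain in FPKM. RT1-BB, a class II beta chain of the rat, was at 205, 604, 279.9 and 678 FPKM, and RT1-BA, its alpha partner, at 231, 627, 355 and 678 FPKM. RT1-DB1, a beta chain of the other class II pair, was at 176, 538, 447 and 589.6 FPKM. MRSA and MRSA + PA were close in all of these and PA lay between them and Media. CIITA, the master activator of class II genes, was at 5.55, 14.4, 12.3 and 14.4 FPKM. Only 6 of 17 class II genes written in the list matched a name in the table, and RT1 genes have near-identical relatives between which reads can be divided.

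Class I genes and the immunoproteasome differed less, with a median of 0.61 and 5 of 15 members at least 2-fold higher. B2M, the light chain of every class I molecule, was at 1772, 4739, 3479 and 4447 FPKM. PSMB9, a subunit of the immunoproteasome that trims antigenic peptides, was at 49.9, 106, 84.3 and 117 FPKM. Dendritic cell genes had a median of 1.11, and 8 of 13 were at least 2-fold higher. ITGAX, the integrin CD11c, was at 3.55, 12, 16 and 16.2 FPKM, and CCL17, a chemokine for T cells made by dendritic cells, at 1.34, 11.8, 5.92 and 7.88 FPKM. CD86, a co-stimulatory ligand, was at 7.59, 17.3, 12.4 and 16.6 FPKM. FSCN1, an actin-bundling protein of mature dendritic cells, was within 2-fold at 28 FPKM in Media and 32.6 FPKM in MRSA + PA.

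**Figure D3:**
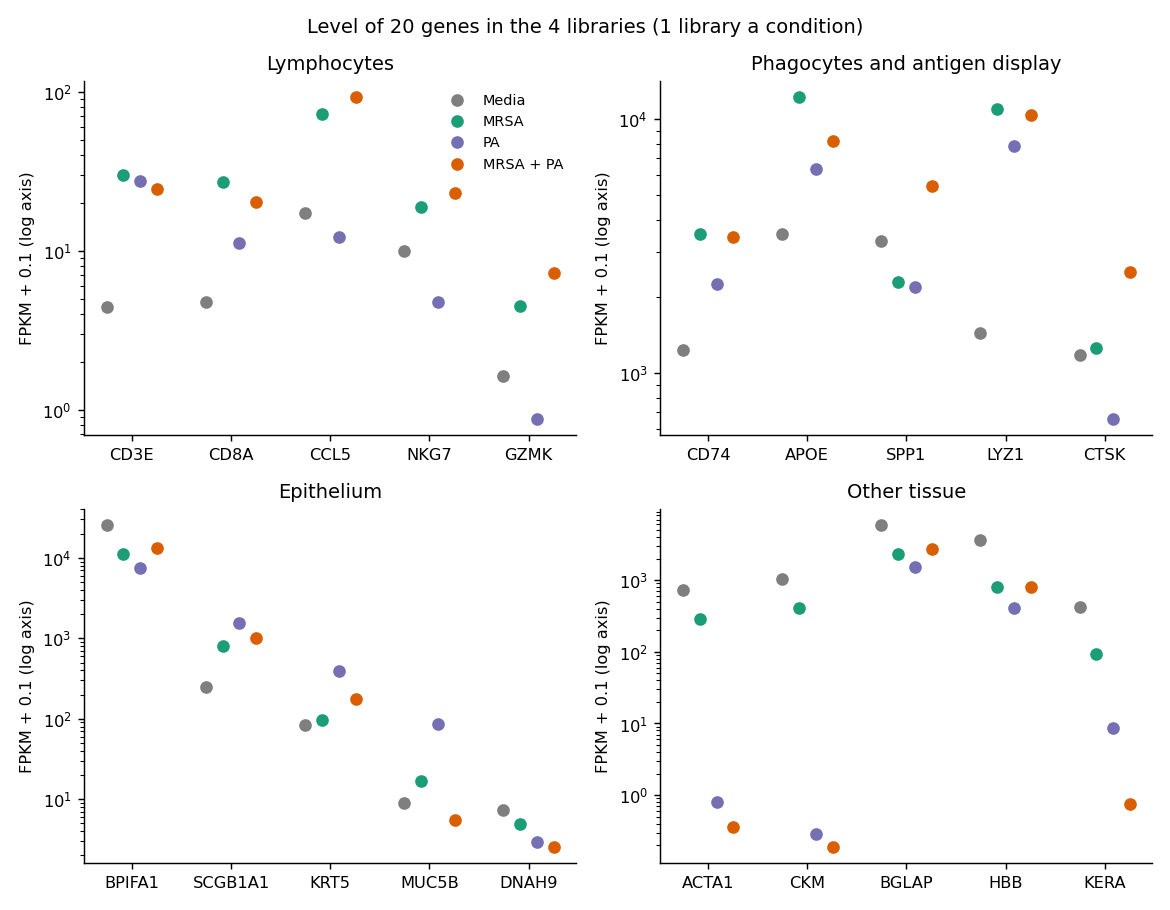
Level of 20 genes in the 4 libraries (vertical log axes, FPKM + 0.1; grey Media, green MRSA, purple PA, orange MRSA + PA; 1 library a condition and no error bars). CD3E is similarly high in the 3 inoculated libraries, GZMK, NKG7 and CCL5 are higher in MRSA and MRSA + PA than in Media and PA, and ACTA1 and CKM are low in PA and MRSA + PA.

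Macrophage genes were higher, and those of lipid-handling macrophages most. In the macrophage and monocyte list 11 of 23 members were at least 2-fold higher, 1 was lower and the median was 0.86. EMR1, the macrophage marker F4/80, was at 19.7, 112, 74.3 and 77 FPKM, and ITGAM, the integrin CD11b, at 8.03, 39.3, 40.1 and 33.1 FPKM. EMR1 was highest in MRSA, whereas ITGAM was close in all 3 inoculated libraries. CX3CR1, a receptor of resident and patrolling cells, was within 2-fold at 19.2 FPKM in Media and 26.1 FPKM in MRSA + PA, as was the scavenger receptor CD163 at 5.93 and 5.77 FPKM. In the lipid-handling list 13 of 23 members were at least 2-fold higher, with a median of 1.09. APOC1, an apolipoprotein of foam cells, was at 15.7, 245, 119 and 167 FPKM. APOE, a lipid carrier, was at 3539.6, 12184, 6352 and 8170.2 FPKM, and GPNMB, a glycoprotein of lipid-laden macrophages, at 177, 1187, 743 and 648 FPKM. MMP12, the macrophage elastase, was at 13.2, 246, 77.6 and 85.1 FPKM. These 4 genes were highest in MRSA, with MRSA + PA well below that level yet above Media.

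Genes of the phagocyte oxidase and lysosome had a median of 0.85, and 12 of 27 were at least 2-fold higher. NCF1, a cytosolic subunit of the oxidase that makes superoxide, was at 28.6, 176, 106 and 133 FPKM, and CYBB, its membrane core, at 41.5, 214, 157 and 162 FPKM. CTSZ, a lysosomal protease, was at 173, 449.6, 328 and 517 FPKM, the highest of the 4 libraries in MRSA + PA. CST3, the secreted inhibitor of cathepsins, was at 4846, 3235, 2024 and 4073 FPKM.

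Neutrophil genes were higher in part. Of 17 members 6 were at least 2-fold higher, with a median of 0.53. CSF3R, the receptor for the growth factor of neutrophils, was at 2.25, 9.04, 30.4 and 10.1 FPKM, and CXCR2, the receptor that guides them to CXC chemokines, at 1.37, 4.35, 15.2 and 5.89 FPKM. Both were highest in PA. TREM1, which amplifies their responses, was at 1.0, 7.36, 7.44 and 6.77 FPKM. The abundant S100A8 and S100A9, which form calprotectin, were within 2-fold, at 196 and 164 FPKM in Media and 306 and 210.1 FPKM in MRSA + PA. MPO and ELANE, granule enzymes made in the bone marrow, were below 5 FPKM in every library, and MMP9, which neutrophils also carry, is given below with the osteoclast genes. Mast cell and eosinophil genes were within 2-fold but for FCER1G and MCPT2, with a median of -0.29. MCPT2, a mast cell protease, was at 15.6, 17.7, 14.1 and 5.63 FPKM.

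CC chemokines were among the signals with the largest differences. Of 16 ligands 11 were at least 2-fold higher and 3 lower, with a median of 1.46. CCL9 was at 9.26, 134, 50.3 and 69.9 FPKM, CCL12, which draws monocytes, at 3.75, 24.5, 14.9 and 27.2 FPKM, and CCL3, made by macrophages, at 3.15, 23.6, 16.3 and 16.2 FPKM. CCL19, which guides cells bearing CCR7, was at 6.17, 10.4, 5.87 and 24.1 FPKM and highest in MRSA + PA. That library was the highest for 4 of the 16 ligands (25%), near the 20.8% of all features. MRSA was the highest for 7 (43.75%), beside 18.7% of all features. CCL20, made by inflamed epithelium, was at 30.9, 59.7, 104 and 68 FPKM. The 3 lower members included the eosinophil attractant CCL24. Also lower was eotaxin, or CCL11, another attractant of these cells, which was at 26.2, 5.46, 0.127 and 0.0909 FPKM, with its lowest levels in PA and MRSA + PA. CCL28, a chemokine of mucosal epithelia, was at 6.36, 2.3, 2.71 and 1.67 FPKM.

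CXC chemokines had a median of 0.23, and 4 of 15 were at least 2-fold higher. CXCL10 and CXCL11, both induced by interferon, were at 1.04, 9.4, 5.52 and 9.7 and 0.376, 2.71, 1.75 and 4.54 FPKM. CXCL13, which draws B cells, was at 10.3, 43.2, 69.6 and 33.4 FPKM. The neutrophil attractants were not at least 2-fold higher. CXCL1 was at 51.7, 40.5, 31.3 and 26.7 FPKM, CXCL2 at 11.6, 18.1, 19.9 and 9.71 FPKM and CXCL5 at 21.6, 39.3, 123 and 24.8 FPKM. The last of these was high in PA alone. CXCL12, a stromal chemokine, was at 245, 121, 89.8 and 98.6 FPKM, lower in every inoculated library. Receptors on lymphocytes and monocytes were mostly higher, with 10 of 16 at least 2-fold higher and a median of 1.36. CXCR6, found on tissue T cells, was at 7.39, 41, 34.4 and 34.7 FPKM, and CXCR4, the receptor for CXCL12, at 24.5, 103, 70.0 and 82.6 FPKM.

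Cytokines of the interleukin-1 family had a median of 0.97, and 8 of 17 were at least 2-fold higher. IL1B, a main inflammatory cytokine, was at 17.3, 57.1, 65.1 and 54.6 FPKM, and its natural antagonist IL1RN at 6.28, 59.7, 73.5 and 47.8 FPKM. IL36B, an epithelial relative, was at 1.18, 16.4, 8.94 and 11.2 FPKM. IL33, an alarm signal of lining cells, was within 2-fold at 172 FPKM in Media and 209.7 FPKM in MRSA + PA. The TNF and IL6 families with their feedback genes differed little, with a median of 0.50 and 2 of 25 at least 2-fold higher. TNF itself was at 4.34, 3.79, 4.37 and 4.21 FPKM. TNFSF11, the osteoclast-inducing ligand RANKL, was at 2.36, 2.5, 2.13 and 6.63 FPKM, high in MRSA + PA alone. SOCS1, which damps cytokine signals, was at 8.07, 4.54, 2.89 and 3.73 FPKM.

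Receptors for microbial products had a median of 0.77, with 8 of 26 at least 2-fold higher. CLEC4E, a lectin receptor for bacterial and fungal glycolipids, was at 10.6, 45.4, 37.3 and 48.4 FPKM, and CLEC7A, which binds fungal glucans, at 39, 123, 113 and 131 FPKM. TLR2, a receptor for lipoproteins of Gram-positive bacteria, was at 11.2, 40.3, 33 and 28.9 FPKM. TLR4, the lipopolysaccharide receptor, was at 6.8, 10.4, 12 and 10.5 FPKM, and TLR5, which binds flagellin, at 1.62, 3.94, 5.73 and 3.15 FPKM. The latter pair was within 2-fold in MRSA + PA, and neither receptor was higher in MRSA + PA than in PA.

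Interferon-induced genes had a median of 0.55, and 9 of 33 were at least 2-fold higher and 2 lower. UBD, a ubiquitin-like protein induced by interferon gamma and TNF, was at 19, 73.4, 43.4 and 124 FPKM, the highest of the 4 libraries in MRSA + PA. ZBP1, a nucleic acid sensor, was at 0.73, 3.6, 3.59 and 3.25 FPKM. BST2, an antiviral membrane protein, was within 2-fold at 179.8, 186, 172 and 191 FPKM. RSAD2 and GBP1 were the lower members, at 1.21 and 0.201 FPKM in MRSA + PA against 3.21 and 4.98 FPKM in Media. In the RefSeq promoters of build GRCr8, taken from 250 bases before to 50 bases after each start, 25 of the 33 members had an entry. A motif like the interferon-stimulated response element, written as GAAA, any 2 bases and GAAA, was found on either strand in 15 of these 25 (60.0%) and in 1034 of all 27457 promoters (3.77%). A looser motif like a kappaB site, GGG, any 5 bases and CC, was found in 15 of 25 as well, beside 48.5% of all promoters. CXCL10 had the largest log2 difference, 3.10, among the members above 0 in both libraries that held the first of these motifs before the start. Its promoter is shown to place these letters in the sequence, with the match in capitals at 243 bases before the start.
CXCL10, GRCr8 chr14:15988816-15989065, plus strand: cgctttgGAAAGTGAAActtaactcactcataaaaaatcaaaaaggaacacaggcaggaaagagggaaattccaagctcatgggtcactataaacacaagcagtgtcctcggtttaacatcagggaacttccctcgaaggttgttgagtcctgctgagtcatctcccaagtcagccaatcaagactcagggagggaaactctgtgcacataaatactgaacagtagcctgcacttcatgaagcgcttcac
A match is a description of the letters and does not mark a site in use.

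Complement genes had a median of 0.75, with 8 of 26 at least 2-fold higher and 3 lower. C3, the central component, was at 34, 121, 208 and 124 FPKM, and CFB, which forms the alternative convertase, at 97.1, 223, 263 and 206 FPKM. CFI, which inactivates C3b, was at 24.7, 34.3, 76.4 and 83.6 FPKM. FCN2, a ficolin that starts the lectin pathway, was at 7.91, 11.7, 15.5 and 23 FPKM, highest in MRSA + PA. C7, a component of the membrane attack complex, was lower at 114, 48.7, 42.4 and 33.3 FPKM. The level of CFI is that of the higher of 2 features with this name. Many genes named here are among those the study picked from these libraries, so their direction is not independent evidence. They include C3, FCN2, CD8A, CD69, GZMM, KLRB1F, CCL5, UBD, ADAM8, CHI3L1, APOC1, CTSZ, MMP12, PLA2G2D, RT1-BA, RT1-BB, RT1-DB1, TFRC and, by name though through its other feature, CFI, as well as LAMB3, KRT7, CCNO, DNAH10, EGLN3, COL2A1, KERA, TNMD, FOXD1, ACTA1, RPLP1 and RPS2 among others.

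Genes of coagulation and fibrin turnover had a median of 0.68. FGG, a fibrinogen chain, was at 0.0307, 2.98, 10.5 and 1.77 FPKM, close to 0 in Media. F13A1, which cross-links fibrin, was lower at 8.12, 2.73, 2.71 and 2.07 FPKM. Leukocyte integrins and adhesion genes had a median of 1.12, with 13 of 18 at least 2-fold higher. ITGAL, the integrin LFA-1, was at 10.2, 50.2, 51.5 and 45.5 FPKM, and its endothelial ligand ICAM1 at 24.3, 44.4, 39.8 and 50.6 FPKM. VCAM1, the ligand of another integrin, was at 28.4, 46.1, 31.2 and 58 FPKM. Fc receptor genes had a median of 0.39 over only 7 members. PIGR, which carries IgA across epithelium, was at 8.27, 19.1, 35.2 and 9.16 FPKM, so that the high level of PA was not found in MRSA + PA.

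Among lipid mediator genes the median was 0.19. PLA2G7, an enzyme that inactivates platelet-activating factor, was at 24.5, 116, 85.4 and 94.9 FPKM, and PLA2G2D, a secreted phospholipase, at 2.56, 7.02, 3.76 and 12.3 FPKM, highest in MRSA + PA. ALOX15, a lipoxygenase, was lower at 11.3, 2.48, 1.66 and 2.58 FPKM. In iron handling the median was 0.24. SLC11A1, the metal transporter of the phagosome, was at 3.93, 30.6, 15.7 and 17.6 FPKM, and TFRC, the transferrin receptor, at 29.5, 49.4, 33.1 and 95.6 FPKM. FTH1, the ferritin heavy chain, was at 1646, 3748, 2029.9 and 2757 FPKM.

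Genes of the motile cilium were lower in MRSA + PA. Of 37 members 15 were at least 2-fold lower and 0 higher, and the median was -0.87, beside 0.19 in MRSA and -0.54 in PA. Below the Media level lay 35 of the 37, beside 7068 of all 15786 features. The summed level of the list was 932, 1017, 598 and 554 FPKM in the same order. DNAH9, a heavy chain of the outer dynein arm that drives the beat, was at 7.24, 4.81, 2.8 and 2.46 FPKM. DNAH5, its partner chain, was at 5.05, 4.25, 3.11 and 2.08 FPKM and DNAH12, an inner arm chain, at 11.9, 10.1, 9.38 and 4.83 FPKM. TEKT4, a filament protein of the axoneme, was at 12.9, 11.5, 5.55 and 4.82 FPKM, and STOML3, a stomatin-like protein found in cilia, at 5.95, 4.69, 3.3 and 1.75 FPKM. For each of these 5 genes, and for 34 of the 37 members, the lowest level of the 4 was in MRSA + PA, beside 20.8% of all features. The abundant DYNLRB2, a dynein light chain, was at 179, 203, 98.5 and 88.7 FPKM, and TPPP3, a tubulin-binding protein of ciliated cells, at 260.5, 240.3, 119 and 134 FPKM. The exceptions were ZMYND10, a factor that assembles dynein arms, at 65.9, 87.1, 76.8 and 79.5 FPKM, and TTC25, a docking factor, at 33.9, 41.8, 34.3 and 35.6 FPKM.

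The regulators of ciliated cells did not show one direction, with 2 of 10 at least 2-fold higher and 1 lower. FOXJ1, which directs motile cilium genes, was at 23, 34, 22 and 16.6 FPKM. CCNO, needed for the mass production of centrioles, was at 0.469, 6.09, 6.48 and 3.29 FPKM, higher in all 3 inoculated libraries, and PLK4, the kinase that starts centriole copying, at 1.11, 4.16, 3.84 and 3.86 FPKM. CCDC78, which acts at deuterosomes, was lower at 16.3, 14, 8.01 and 6.68 FPKM. RFX factors that work with FOXJ1 bind a motif called the X-box. An X-box, searched as GT, any 2 bases, CC, any 3 bases, G, any base and AAC, was found on either strand in 5 of 27 cilium promoters with an entry (18.5%) and in 577 of all 27457 promoters (2.1%). DNAH12 had the largest log2 difference, -1.28, among members with such a match wholly before the start. Its promoter is shown for the position of the match, in capitals, at 62 bases before the start; the capitals are the same motif read on the other strand.
DNAH12, GRCr8 chr16:1944502-1944751, plus strand: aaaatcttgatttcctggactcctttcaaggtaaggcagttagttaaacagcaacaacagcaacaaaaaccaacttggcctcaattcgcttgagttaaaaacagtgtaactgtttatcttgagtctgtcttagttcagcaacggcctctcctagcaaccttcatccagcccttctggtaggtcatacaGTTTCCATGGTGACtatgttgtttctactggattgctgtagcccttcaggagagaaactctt

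**Figure D4:**
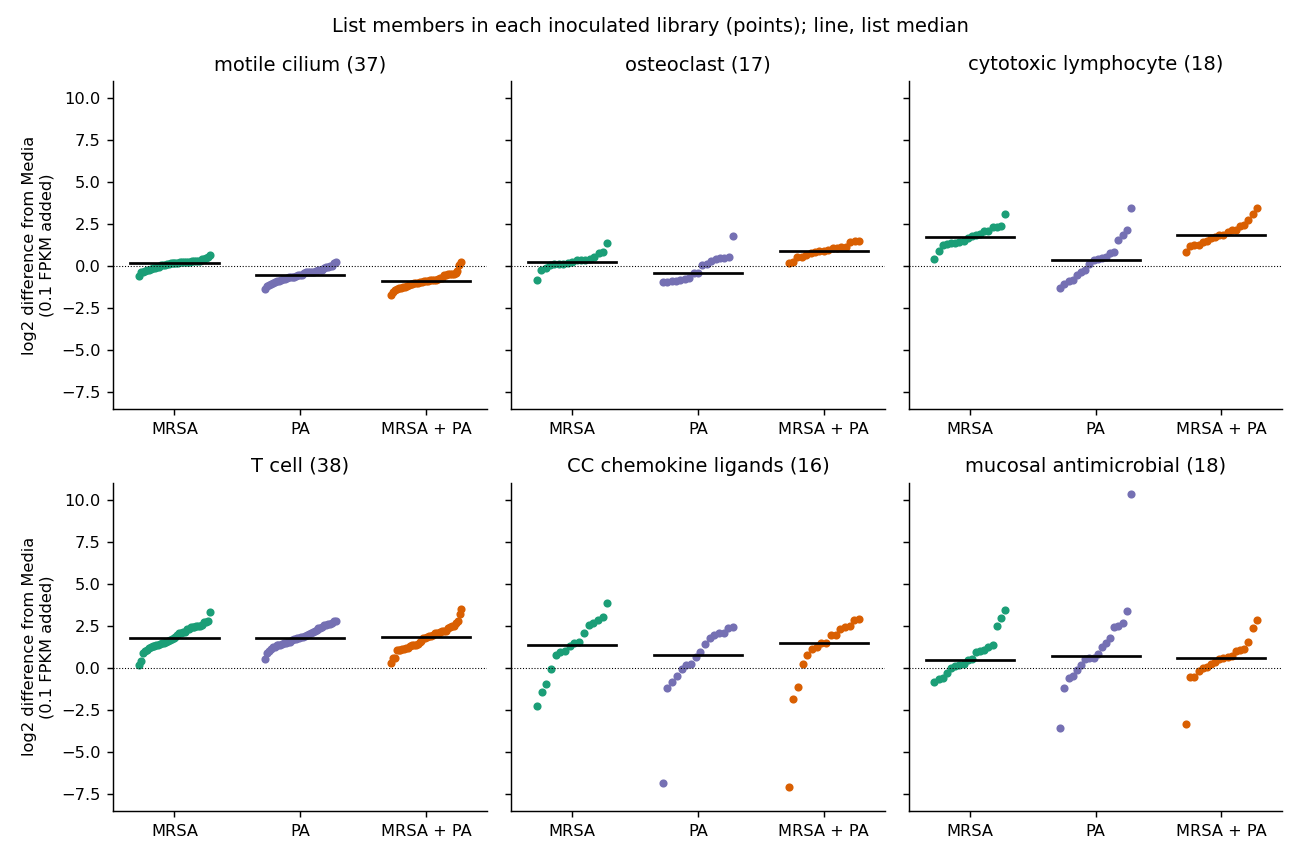
Log2 difference from Media (vertical axes, 0.1 FPKM added) of every member of 6 gene lists in the MRSA, PA and MRSA + PA libraries; points are members sorted by value, the black line is the list median and the dotted line no difference. All 3 comparisons share the Media library. Cilium medians are 0.19, -0.54 and -0.87, osteoclast medians 0.27, -0.42 and 0.93, and cytotoxic lymphocyte medians 1.74, 0.39 and 1.85.

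Secretory genes of the airway type were mostly at or below the Media level, with a median of -0.41 and 5 of 23 at least 2-fold lower. BPIFA1, a secreted BPI fold protein of airways, was at 25725, 11118, 7472 and 13362 FPKM, and this loss was the largest in FPKM of all named features. SCGB1A1, a secretoglobin of club cells, was the single member at least 2-fold higher, at 248, 807, 1537 and 1000.0 FPKM. Its relative SCGB3A2 went the other way at 249, 123, 118 and 103 FPKM. GP2, a receptor for bacterial fimbriae on specialised epithelium, was lower at 97.8, 76.7, 127 and 35.2 FPKM. The gel-forming mucins were low: MUC5B was at 8.82, 16.5, 86.1 and 5.4 FPKM and MUC5AC at 0.551, 2.07, 4.55 and 0.847 FPKM. For MUC5B, the high level of PA was absent from MRSA + PA.

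Antimicrobial proteins had a median of 0.58, and 6 of 18 were at least 2-fold higher. LYZ1, a lysozyme that splits the bacterial cell wall, was at 1436, 10972, 7802 and 10356 FPKM and had the largest gain in FPKM of all named features. SLPI, an inhibitor of neutrophil elastase, was at 185, 1041, 526 and 963 FPKM. CHI3L1, a chitinase-like protein, was at 18.6, 48, 44.4 and 53.1 FPKM. LCN2, which withholds iron from bacteria, was at 49.6, 115, 513 and 72.7 FPKM, so that MRSA + PA lay between Media and MRSA and far below PA. DEFB4, an inducible defensin, was at 127 FPKM in PA and listed at 0 in the other libraries, MRSA + PA included. LYZ2, a second lysozyme gene with a sequence close to that of LYZ1, was at 9.62, 106, 0.731 and 0.85 FPKM, and reads of the pair could have been divided between them.

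Keratins of basal and simple epithelium had a median of 0.32. KRT17, a keratin of injured epithelium, was at 8.45, 25.1, 95.2 and 65.3 FPKM, and KRT5, which marks basal cells, at 83.6, 95.4, 393 and 175 FPKM. KRT7 of simple epithelium was at 12.9, 23.4, 60.4 and 45.4 FPKM. In each of these PA was highest and MRSA + PA next. KRT4, a keratin of moist stratified epithelium, was lower at 5.8, 1.02, 0.753 and 1.57 FPKM. The cornified envelope, the outer shell of skin cells, differed sharply between PA and MRSA + PA, since its summed level was 6.54, 9.61, 1825 and 8.4 FPKM in the same order. KRT1, a keratin of the upper skin layers, was at 0.224, 0.917, 465 and 0.0308 FPKM and KRT10, its partner, at 2.85, 2.1, 456 and 2.1 FPKM. All 16 members were highest in PA, beside 31.6% of all features. Members such as KRT1 met the level limit only through PA, so the set was chosen in part by its level there. For these members the high levels of PA were not found in the library given both species.

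Among junction and anchorage genes 6 of 32 were at least 2-fold higher. LAMB3, a laminin chain of the epithelial basement membrane, was at 6.14, 12.5, 30.7 and 20.2 FPKM, and COL17A1, a collagen of the hemidesmosome, at 7.55, 9.83, 38.1 and 16.2 FPKM. CLDN4, a tight junction protein, was within 2-fold at 185 FPKM in Media and 164 FPKM in MRSA + PA. Ion and water transport had a median of 0.04, which the median-of-ratios scaling brought to -0.02. SLC26A4, the anion exchanger pendrin, was at 2.76, 8.8, 32.9 and 11.6 FPKM. AQP3 and AQP5, water channels of epithelium and glands, were lower at 5.94 and 25.1 FPKM against 16.3 and 58.6 FPKM in Media.

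Osteoclast genes had their highest levels in MRSA + PA. Of 17 members 7 were at least 2-fold higher than in Media and 16 were highest in MRSA + PA, beside 20.8% of all features. The median was 0.93, against 0.27 in MRSA and -0.42 in PA. The summed level was 2444, 2638, 1604 and 4807 FPKM in the same order. CTSK, the protease that dissolves bone collagen, was at 1172, 1259.8, 659 and 2491 FPKM. ACP5, the tartrate-resistant phosphatase used to stain osteoclasts, was at 424, 395, 221 and 807 FPKM. ITGB3, the integrin with which they hold to bone, was at 33.2, 43.2, 34.7 and 93.6 FPKM, and MMP9, a gelatinase, at 96.1, 116, 71.7 and 209.8 FPKM. DCSTAMP, which fuses their precursors, was at 18.3, 15.3, 9.98 and 35.1 FPKM. In these 5 genes MRSA + PA stood clear of both single inocula. OSCAR, a co-stimulatory receptor, did not follow and was highest in PA, at 2.22, 3.05, 7.85 and 6.22 FPKM. TNFSF11, the ligand named above, was 6.63 FPKM in MRSA + PA and at most 2.5 FPKM in the other libraries, and TNFRSF11B, its decoy receptor osteoprotegerin, was at 13.3, 14.1, 17.4 and 23.4 FPKM. Some list members, among them MMP9 and CTSK, are also made by other cells.

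Bone-forming genes did not show the same direction, with 2 of 21 at least 2-fold higher, 6 lower and a median of -0.57. BGLAP, osteocalcin, was at 5905, 2282, 1529 and 2717 FPKM, and SPARC, osteonectin, at 3619, 1668, 1466 and 1408 FPKM. COL1A1, the main collagen of bone, was at 3463, 1872, 1704 and 1171 FPKM. In contrast IBSP, bone sialoprotein, was at 257, 122, 88.9 and 270.5 FPKM and DMP1, a matrix protein of osteocytes, at 132, 48.4, 35.4 and 141 FPKM, each close to Media and above both single inocula. SPP1, osteopontin, which macrophages and osteoclasts also make, was at 3308, 2276, 2179 and 5466 FPKM, highest in MRSA + PA. The part of the bone taken with the mucosa in the osteoclast values was not tested. Among matrix proteases MMP13, collagenase 3, was at 1366, 519.5, 587 and 2388 FPKM and its inhibitor TIMP1 at 305, 232, 297 and 523 FPKM, again highest in MRSA + PA. MMP3, stromelysin, was lower at 46.2, 6.51, 13.3 and 20.3 FPKM, as was ADAM8 at 43.4, 23.4, 22.9 and 14.5 FPKM.

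Skeletal muscle genes held the largest list differences of the comparison and were lower in MRSA + PA. Of 37 sarcomere genes 36 were at least 2-fold lower, with a median of -6.65, and TPM3, a tropomyosin that non-muscle cells also express, was the exception at 129.9 FPKM in Media and 219 FPKM in MRSA + PA. The summed level of the list was 11685, 4788, 829 and 828 FPKM in the same order, and of this last sum 411 FPKM came from TPM1, 219 from TPM3 and 176 from TPM2, tropomyosins that other cells express as well. MYLPF, a fast myosin light chain, was at 1948, 830.0, 1.46 and 0.58 FPKM, and TNNC2, a calcium-binding troponin, at 1698, 581, 0.682 and 0.213 FPKM. MYL1 and MYL2 were listed at 0 in MRSA + PA, beside 1249 and 1487 FPKM in Media. CKM, muscle creatine kinase, was at 1028, 409, 0.187 and 0.0901 FPKM, and the oxygen carrier MB at 1177, 461, 0.888 and 0.138 FPKM. ATP2A1, the calcium pump of fast muscle, was at 412, 136, 0.773 and 0.311 FPKM. MYOG, a factor of muscle differentiation, was listed at 0 in PA and MRSA + PA, against 5.65 FPKM in Media. Medians were -5.67 for excitation and calcium handling, -5.58 for muscle energy metabolism and -5.54 for myogenic factors. These sizes depend on what is added to levels near 0, since with 1 FPKM added the sarcomere median was -4.90 and that of myogenic factors -2.47. The last of these also depends on the level limit, and was -0.56 when 5 FPKM on average was required. The part of muscle in the other differences was not tested.

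The letters CAGCTG, a palindrome and an E-box of the kind bound by MYOD1 and MYOG, were found in 8 of 31 sarcomere promoters with an entry (25.8%) and in 4134 of all 27457 promoters (15.1%). The same letters were in 9 of 29 promoters of the T cell list (31.0%), in 3 of 32 of the cell division list (9.38%) and in none of the 9 of the osteoclast list. ACTA1 had the largest log2 difference, -10.97, among sarcomere members above 0 in both libraries with the letters before the start. Its promoter is shown for that position, with the E-box in capitals at 237 bases before the start.
ACTA1, GRCr8 chr19:68784195-68784444, minus strand: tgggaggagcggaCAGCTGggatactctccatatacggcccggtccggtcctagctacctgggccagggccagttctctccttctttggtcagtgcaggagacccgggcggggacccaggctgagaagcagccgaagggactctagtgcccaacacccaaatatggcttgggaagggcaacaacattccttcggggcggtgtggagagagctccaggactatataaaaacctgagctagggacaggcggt

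Other connective tissue was lower as well. In the tendon and fibrous matrix list 15 of 31 members were at least 2-fold lower and 0 higher, with a median of -0.81. KERA, a keratan sulphate proteoglycan, was at 422, 93.9, 8.63 and 0.642 FPKM, TNMD, a tendon membrane protein, at 64.5, 17.7, 0.421 and 0.465 FPKM, and THBS4, a tendon thrombospondin, at 204, 56.7, 4.91 and 8.09 FPKM. MFAP4, an elastic fibre protein, was at 929, 233, 403 and 167 FPKM. LUM, a proteoglycan of loose connective tissue too, was close to Media at 1135, 932, 906 and 1097 FPKM. Cartilage genes had a median of -0.40 with 6 of 15 lower. ACAN, the main cartilage proteoglycan, was at 4.36, 1.54, 0.452 and 0.202 FPKM and COL2A1, its main collagen, at 12, 7.95, 26.5 and 2.12 FPKM. COL9A1, another cartilage collagen, ran against these at 0.0642, 2.1, 27.3 and 1.52 FPKM. Over 34 collagen chains the median was -0.28, with 7 lower, 2 higher and COL3A1, of loose connective tissue, at 1532, 1312, 1475 and 1148 FPKM.

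Fat, nerve sheath and blood genes were lower in part. Of 21 adipocyte genes 10 were at least 2-fold lower. ADIPOQ, the hormone of fat cells, was at 35.4, 6.79, 1.14 and 0.271 FPKM and PLIN1, which coats their lipid droplets, at 3.4, 0.67 and 0.0153 FPKM in the first 3 libraries and listed at 0 in MRSA + PA, while FABP4 and LPL, which macrophages also express, were within 2-fold. Schwann cell genes had a median of -1.02, with 10 of 19 lower. PMP22, a protein of peripheral myelin, was at 139, 91.9, 83.6 and 92.8 FPKM. Erythroid genes had a median of -1.69, with 8 of 12 lower, and the median was -0.84 when no level limit was set. HBB, a globin, was at 3672, 814, 409 and 790.2 FPKM and ALAS2, the erythroid enzyme of haem synthesis, at 56, 9.51, 4.46 and 7.85 FPKM. In contrast, vessel genes were close to Media, with a median of -0.09 and 2 of 26 lower. PECAM1, found on endothelial cells, was at 29.5, 21.6, 27.1 and 27.5 FPKM and PLVAP, of fenestrated vessels, at 114, 76.8, 85.1 and 128 FPKM. LYVE1, of lymphatic vessels, was lower at 11, 3.5, 4.12 and 4.16 FPKM. Smooth muscle genes had a median of -0.48, and ACTA2, smooth muscle actin, was at 148, 72.4, 147 and 109.7 FPKM. The part of these tissues in the other differences was not tested.

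Genes that pattern the craniofacial mesenchyme had a median of -0.48, with 6 of 25 at least 2-fold lower. TBX15 was at 21.2, 6.3, 0.724 and 0.69 FPKM and FOXD1 at 5.55, 1.26, 0.279 and 0.183 FPKM, near 0 in PA and MRSA + PA alike. PRRX1, a factor of the mesenchyme as a whole, was level at 188, 171, 182 and 192 FPKM.

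Cell division genes were higher in MRSA + PA, and 24 of 43 were at least 2-fold higher with none lower and a median of 1.11. RRM2, which makes deoxynucleotides for replication, was at 2.63, 8.08, 13.5 and 9.09 FPKM. BUB1B, a kinase of the spindle checkpoint, was at 0.735, 2.43, 3.82 and 2.49 FPKM and MKI67, the proliferation marker, at 1.2, 3.04, 5.15 and 2.78 FPKM. PA was the highest of the 4 in these 3 genes and in 28 of the 43, beside 31.6% of all features. PCNA, a clamp for DNA polymerase, was within 2-fold at 55.3 FPKM in Media and 72.8 FPKM in MRSA + PA. In cholesterol synthesis 0 of 22 members were at least 2-fold higher and 0 lower, and the median was 0.00. The unfolded protein response had a median of 0.21, with 1 of 22 at least 2-fold higher, SDF2L1. Hypoxia and glycolysis had a median of -0.06. EGLN3, a hydroxylase induced by hypoxia, was lower at 8.32, 4.33, 5.41 and 1.97 FPKM. Genes often used as internal standards were not all level. GAPDH was at 1005, 899, 743 and 708 FPKM, ACTB at 2246, 2929, 2694 and 3032 FPKM and RPL13A at 3169, 3170.4, 3035 and 3611 FPKM, and the median of 17 such genes was 0.39.

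Few features stood above all 3 other libraries in MRSA + PA, while those below were more numerous than in either single inoculum. In MRSA + PA 51 features were at least 2-fold above each of the others and 137 at least 2-fold below, beside 511 and 803 in Media, 102 and 34 in MRSA, and 289 and 91 in PA. Of the 51, 16 had immunoglobulin variable segment names. LV2B_MOUSE, one of these, was at 33.2, 57.9, 65.6 and 233 FPKM. OCC-1, a transcript first named in colon carcinoma, is a name carried by 2 features. The one that stood apart was at 1908, 1074, 825 and 10.3 FPKM, abundant in 3 libraries and nearly missing from the fourth, and the other is not described here. A feature named COX7B on chromosome 6 was at 283, 511, 155 and 4.26 FPKM, and reads of this respiratory chain subunit may be shared with near-identical copies. With a mean of at least 5 FPKM required, 26 features stood above and 54 below, and with 1 FPKM added 42 stood below.

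**Figure D5:**
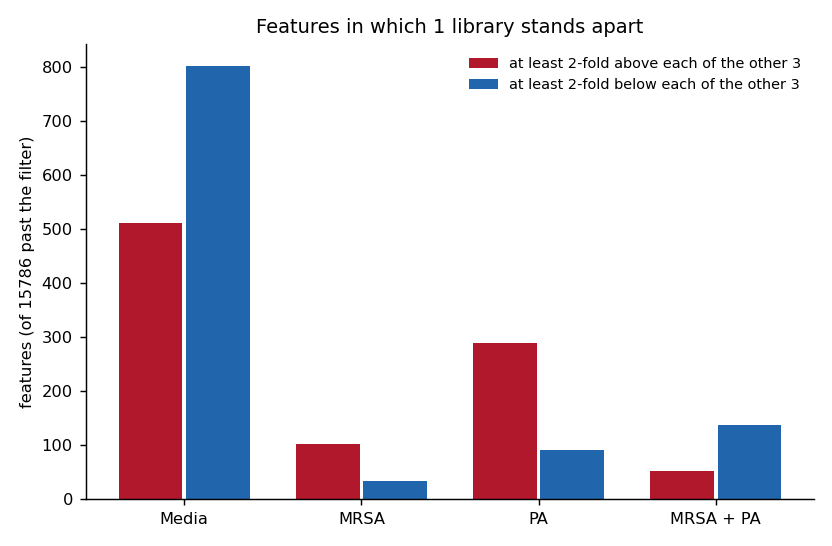
Number of features, of 15786, in which 1 library is at least 2-fold above (red) or below (blue) each of the other 3. Media stands apart in 511 and 803 features, and MRSA + PA in 51 and 137.

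Gains and losses in FPKM were led by abundant genes. Next to LYZ1, APOE, B2M and CD74, the 10 largest gains included TMSB4X, an actin-binding peptide, from 4976 to 10133 FPKM, and the ribosomal protein RPLP1, from 693 to 2225 FPKM. The 10 largest losses included 2 features named HBA1, of which one went from 7850.4 to 1319.8 FPKM, and COL1A2, from 3062 to 1159 FPKM. In relative terms, leaving immunoglobulin names aside, the furthest above Media among named features above 0 in both libraries and with a mean of at least 5 FPKM were GM5153, OTOR, WFDC18 and OTOS. GM5153 is a name carried by 5 features, and the one on chromosome 17 was at 0.808, 56.5, 10.1 and 98.3 FPKM. The name does not tell what is encoded, and whether it is an immunoglobulin sequence was not checked. OTOR, a secreted protein of the inner ear, was at 0.136, 12.7, 34.4 and 19.7 FPKM, and OTOS, otospiralin, also known from the inner ear, at 0.663, 17.2, 15 and 22.1 FPKM. WFDC18, a small secreted protein with a whey acidic protein domain, was at 0.268, 9.78, 25.3 and 14.5 FPKM. Each of the 4 was higher than Media in all 3 inoculated libraries. LILRB3, an inhibitory leukocyte receptor of a family with near-identical members, was the one gene outside muscle and tendon among the 12 furthest below, at 123, 537, 1.03 and 0.152 FPKM.

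Some features were listed at 0 in 1 library of the pair and at 10 FPKM or more in the other. There were 22 at 0 in Media, of which 15 carried a name, and 32 at 0 in MRSA + PA, of which 25 did. Immunoglobulin variable segments made up most of the first names. IFNA5, which carries the name of a type I interferon, was also among them at 269, 75.5 and 31.9 FPKM in MRSA, PA and MRSA + PA. Skeletal muscle genes made up most of the second names, among them TTN, the giant spring of the sarcomere, at 59.6 FPKM in Media. A short feature, 1 of 2 named DNAH10 for an inner arm dynein of the cilium, was at 10.8, 1.08 and 1.82 FPKM in Media, MRSA and PA. A feature named RPS2, a ribosomal protein with many near-identical copies, was at 84.1 and 96 FPKM in Media and MRSA and listed at 0 in PA and MRSA + PA. ZFP120, a zinc finger name, is carried by more than 1 feature, of which one was at 56.3 FPKM in MRSA + PA alone and another at 17.9 FPKM in Media alone. An exact 0 can also be a failed estimate in a file of this kind, so no fold is given for these features.

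Features named for retroviral GAG, POL and ENV proteins, which lie in repeated elements of the genome, were lower more often than higher. Of 93 past both conditions 36 were at least 2-fold lower and 16 higher, with a median of -0.38, and reads of such copies cannot be placed with certainty. The 1479 features without a name numbered 217 at least 2-fold higher and 234 lower.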

How the data were processed

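Poly(A) RNA of scraped middle ear mucosa was sequenced in 4 libraries, 1 for each condition. Per the submitters' processing notes, the authors aligned reads with STAR 2.3.0e and estimated FPKM with Cufflinks 2.1.1; these FPKM values were deposited in 1 table of 27832 features. Per the methods, multi-mapped reads and fragment bias were corrected for and Ensembl gene models were used. The methods name a human reference, whereas chromosomes in the table are numbered to 20 with X, as in the rat. The genome build of the table and the strand are not given in the sources used here. Depth is given only as a range over all libraries and not for each, so no interval for counting error was computed. The treatment protocol in the labels describes MRSA for every sample, so groups were taken from the label that says what was inoculated. Low values were searched for whole-read steps. Of 160 low features, 75 had an absolute log2 ratio of MRSA + PA over Media below 0.4. The median of these 75 put the relative depth of MRSA + PA at 1.08 times Media. The window was set beforehand and keeps that median near equal depth, so it is no measure of depth. No counts were recovered. The span of a feature is its last minus its first position plus 1. The deposited comparison tables hold the authors' own fold changes and p-values and were not used.

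The log2 difference was computed on FPKM + 0.1 with Python 3.11.15, numpy 2.4.6 and pandas 2.3.3, after the script was tested on simulated data. With 1 library a condition there was no test. Differences of weakly expressed features are understated on this scale. Where a name had several features, the one with the highest mean stood for it in a list. Named genes were the 12 named features furthest above and the 12 furthest below Media, at 5 FPKM or more on average, the 10 with the largest gain and the 10 with the largest loss in FPKM, those listed at 0 on 1 side with 10 FPKM or more on the other, in each list the 4 highest by mean and the 4 with the largest difference, and the 10 furthest above and below all 3 other libraries. The features, lists and rules were chosen with earlier results of these data known. Alternatives were another pseudocount, 2 scalings, other level limits, all lengths, summed features of a name and leaving out feature groups.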

Additional observations from a re-analysis of the deposited data

Results flagged for a closer look

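The median log2 difference of motile cilium genes from Media was -0.87 in MRSA + PA over 37 genes, and the single inocula lay on both sides of 0, at 0.19 in MRSA and -0.54 in PA. It is listed because MRSA + PA and MRSA had opposite signs against the same Media library. For osteoclast genes the median was 0.93 in MRSA + PA over 17 genes, beside 0.27 in MRSA and -0.42 in PA, so that MRSA + PA and PA had opposite signs. Neither difference between inocula was tested, since each had 1 library.

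Among the 269 features with a span under 300 bp, which the comparison left out, 6 were listed at 0 in Media and at 10 FPKM or more in MRSA + PA. Of these 6, 3 had no name and 2 had immunoglobulin variable segment names. In the opposite direction there were 11.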

How the results depend on the processing

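The counts of features at least 2-fold apart depended on the level limit. With no limit on the mean, 22186 features gave 2029 higher and 2721 lower, and 197 and 310 that stood at least 2-fold above and below all 3 other libraries. With a mean of at least 5 FPKM, 11187 features gave 675 higher and 505 lower, 26 and 54 that stood above and below all 3 others, and 128 list members lower. With 1 FPKM added, 42 features stood below all 3 others in place of 137. Without features that have no name this was 91, and without the 4 muscle lists 111 list members were lower in place of 193. Leaving out groups of features, and all alternatives for the features that stand apart and for counts of list members, were chosen after seeing the data. The share of higher features was 52.9% with libraries rescaled to equal FPKM sums and 46.5% with median-of-ratios scaling. Of 495 list medians recomputed, 476 stayed within 1.5-fold. The neuron median, over 2 genes, was 0.97 and reached -1.32 with the level limit set on Media and MRSA + PA alone, and the medians of ion and water transport and of cholesterol synthesis, both near 0, also changed sign. The 4 muscle lists moved with 1 FPKM added, where the sarcomere median was -4.90 and those of calcium handling, energy metabolism and myogenic factors -3.84, -3.77 and -2.47. At 5 FPKM or more on average, the neutrophil median was 1.12 and that of myogenic factors -0.56. With other level limits the erythroid median reached -0.84, the adipocyte median -1.58 and the cartilage median -0.99. Of 3301 recomputed log2 differences of named genes 3129 stayed within 1.5-fold, and the 172 that did not came from 1 or 0.01 FPKM added. No paired analysis was possible because each condition has 1 library and the labels carry no replicate numbers. Depth is not given for each library, and the counting error of low FPKM values was not sized.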

Other observations

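Some of the largest levels in the table belonged to features with no gene name that were listed at 0 in 1 library of the pair. There were 8 such features with 100 FPKM or more on the other side, 4 at 0 in Media and 4 at 0 in MRSA + PA, and they are described here because of their values. A feature on chromosome 3 with a span of 946 bp reached 51319 FPKM in Media, with 0 listed in all 3 inoculated libraries. It held 6.59% of the FPKM sum of Media over features of at least 300 bp, which was 727863 without it. On chromosome 20, a plus-strand feature with a span of 41316 bp was at 2762, 1986 and 3022 FPKM in Media, MRSA and PA and listed at 0 in MRSA + PA. A minus-strand feature of 41315 bp, which shared 41310 bp with it, was at 4764 FPKM in MRSA + PA and listed at 0 in the other libraries. The pair thus covered nearly the same positions on opposite strands, and MRSA + PA was listed on the strand that the other libraries were not. A second pair on chromosome 20 shared 212669 bp. Its plus-strand feature was listed at 0 in Media and MRSA, at 2366 FPKM in PA and at 664 FPKM in MRSA + PA, and its minus-strand feature was listed at 0 in Media and was at 56.5, 518 and 284 FPKM in MRSA, PA and MRSA + PA. Whether the library preparation kept strand is not stated, so reads of the members of a pair cannot be told apart. These features count among those at least 2-fold apart. Without features that have no name, 998 features were higher and 959 lower.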
